A study of Mus musculus with 7 samples.

Results

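The 7 genes described here belong to the cholesterol synthesis pathway that SREBP2 controls: Srebf2, which encodes SREBP2 itself, the synthesis enzymes Hmgcs1, Idi1, Sqle, Lss and Cyp51, and the feedback gene Insig1. They were chosen by name and are 7 of the 21878 genes in the deposited tables. Abdominal aortas were taken from male mice of the C57BL/6 strain, 8 weeks old, given angiotensin II (Ang II), a pressor peptide used to induce aortic aneurysm, over at most 28 days. The labels give 4 libraries as ApoE-/-Nur77-/- (here DKO 1 to DKO 4) and 3 as ApoE-/- (ApoE 1 to ApoE 3), so both groups are labelled as carrying the ApoE deletion, which is known to raise plasma cholesterol, and every library comes from an Ang II-exposed aorta. The comparison asks what loss of Nur77, a nuclear receptor encoded by Nr4a1, changes on that labelled background. Whether every library stands for its own mouse is not stated, so p-values measure the spread between these libraries, which may be technical.

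SREBP2 is a transcription factor held in the endoplasmic reticulum membrane. When membrane sterol is scarce, its escort protein SCAP carries it to the Golgi, where proteases release the part that enters the nucleus and activates genes of sterol synthesis and lipoprotein uptake. When sterol is ample, INSIG proteins retain the complex, so RNA of the synthesis genes is a common readout of how cells sense their sterol supply. In the artery wall the pathway is studied in smooth muscle cells, endothelium and macrophages that take up lipoprotein cholesterol.

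Neither targeted gene followed the labels, so each direction below is that of the libraries labelled DKO against those labelled ApoE-/-. Nr4a1 was read at 46.2, 57.0, 90.1 and 92.7 CPM (counts scaled to library size, with TMM scaling of the library sizes) in DKO 1 to DKO 4, against 193, 56.4 and 111 CPM in ApoE 1 to ApoE 3. Apoe was read at 34.7, 18.3, 33.8 and 28.1 CPM in DKO 1 to DKO 4, against 233, 250.3 and 184 CPM in ApoE 1 to ApoE 3. Gene counts do not show whether reads fall outside a deleted part. Srebf2 and Sqle lie on chromosome 15, as Nr4a1 does, and none of the 7 genes lies on chromosome 7 with Apoe. Library totals were 19949042 to 21727192 counts in the libraries labelled DKO and 19295287 to 21205934 in those labelled ApoE-/-. A count of 0 would allow a level of up to 0.138 to 0.155 CPM, and the lowest level of any of the 7 genes was 2.18 CPM, for Idi1 in ApoE 3. The smooth muscle, endothelial and adventitial fibroblast genes that define aortic wall were all among the genes tested, with Acta2, smooth muscle actin, at 3016 to 11779 CPM in the libraries labelled DKO and 6120 to 9190 CPM in those labelled ApoE-/-.

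Promoter sequence is shown for 5 of the genes because it is the part of each gene through which SREBP2 and its partners act, and because these genes did not all vary alike across the libraries. The table of RefSeq promoters (GRCm38.p6) held 6 of the 7 genes, and the stretches printed are the 250 bases before the annotated start, 5′ to 3′ on the strand of the gene. Capitals mark matches, on either strand, to the sterol regulatory element core TCACCCCAC and to the boxes of its usual partners. The box of NF-Y is CCAAT. The box of Sp1 is GGGCGG.
Hmgcs1, chr13:119690101-119690350, plus strand: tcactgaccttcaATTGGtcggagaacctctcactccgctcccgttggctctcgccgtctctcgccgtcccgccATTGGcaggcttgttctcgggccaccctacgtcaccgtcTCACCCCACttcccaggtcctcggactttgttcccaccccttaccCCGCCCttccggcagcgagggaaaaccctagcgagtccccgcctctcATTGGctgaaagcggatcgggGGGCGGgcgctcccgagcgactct
Idi1, chr13:8885356-8885605, plus strand: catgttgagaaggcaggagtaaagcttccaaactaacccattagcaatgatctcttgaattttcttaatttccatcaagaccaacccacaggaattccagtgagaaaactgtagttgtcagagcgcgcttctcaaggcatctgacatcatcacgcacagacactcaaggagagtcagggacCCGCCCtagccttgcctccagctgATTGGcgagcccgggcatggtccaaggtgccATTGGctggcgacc
Cyp51, chr5:4104698-4104947, minus strand: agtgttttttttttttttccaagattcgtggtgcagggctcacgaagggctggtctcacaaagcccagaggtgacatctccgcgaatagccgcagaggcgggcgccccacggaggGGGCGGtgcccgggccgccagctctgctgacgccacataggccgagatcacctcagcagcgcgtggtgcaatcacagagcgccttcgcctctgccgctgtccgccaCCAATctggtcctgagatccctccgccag
Srebf2, chr15:82147019-82147268, plus strand: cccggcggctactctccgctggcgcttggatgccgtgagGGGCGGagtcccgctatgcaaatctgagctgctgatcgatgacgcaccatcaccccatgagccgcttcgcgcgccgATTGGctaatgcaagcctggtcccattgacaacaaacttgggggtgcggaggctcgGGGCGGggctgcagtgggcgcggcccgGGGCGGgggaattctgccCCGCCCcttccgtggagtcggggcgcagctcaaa
Insig1, chr5:28071162-28071411, plus strand: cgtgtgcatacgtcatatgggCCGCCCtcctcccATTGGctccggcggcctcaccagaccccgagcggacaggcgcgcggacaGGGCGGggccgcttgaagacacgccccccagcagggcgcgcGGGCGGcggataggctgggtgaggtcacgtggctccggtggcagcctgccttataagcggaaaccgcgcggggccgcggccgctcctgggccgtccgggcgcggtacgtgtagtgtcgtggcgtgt

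The sterol element core was found in 1 of the 6 promoters, that of Hmgcs1, 137 bases before its start, and in 0.496% of all 32851 promoters in the table. The looser form TCACNCCAC, which includes the first, was found in the same single promoter and in 1.05% of all promoters. The NF-Y box was present in 6 of 6 promoters and in 33.8% of all, and the Sp1 box in 6 of 6 and in 32.7% of all. Hmgcs1 held 3 NF-Y boxes, Idi1 held 2, and Srebf2, Lss, Cyp51 and Insig1 held 1 each. These are matches of letters, and no binding was measured.

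Levels per gene length were compared on the deposited FPKM scale (fragments scaled to gene length and library depth). Insig1 had a median of 19.95 FPKM over the 7 libraries (range 12.9 to 28.5) and Hmgcs1, which makes HMG-CoA at the entry of the pathway, 16.7 FPKM (13.7 to 36.9). Srebf2 had a median of 13.4 FPKM (10.4 to 18.1). The squalene epoxidase gene Sqle had 5.34 FPKM (3.50 to 14.8) and the lanosterol demethylase gene Cyp51 4.55 FPKM (3.74 to 8.90). Lss, which closes the sterol rings to give lanosterol, had 2.29 FPKM (1.65 to 3.04), and Idi1, which interconverts the isoprene units, 1.35 FPKM (0.755 to 2.88). The order of neighbours was not the same in each library throughout: Insig1 exceeded Hmgcs1 in 3 of 7 libraries, Sqle exceeded Cyp51 in 5 of 7 and Lss exceeded Idi1 in 6 of 7. Hmgcs1 exceeded Srebf2, Srebf2 exceeded Sqle and Cyp51 exceeded Lss in 7 of 7, and only the Cyp51 and Lss ranges did not overlap among these neighbouring pairs.

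**Figure D1:**
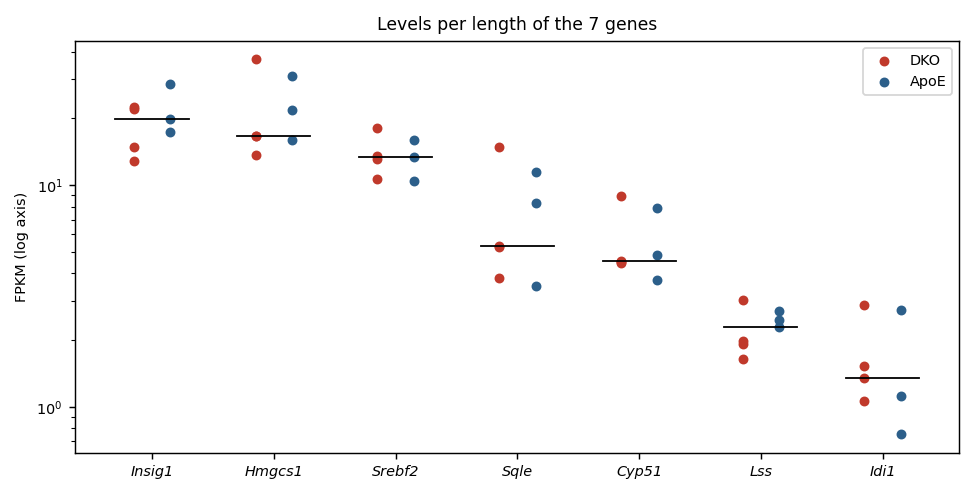
FPKM (log axis) of the 7 genes in each library, with libraries labelled DKO left (red, n = 4) and ApoE right (blue, n = 3) and the median over 7 libraries as a line. Insig1, Hmgcs1 and Srebf2 form the upper set, and the ranges of the groups overlap for each gene.

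No difference between the labels was called for any of the 7 genes, and DKO 2 and ApoE 2 stood high within their groups for most of them. The genes are taken below in pathway order, enzymes first, with the fold change from edgeR's quasi-likelihood test over all 14609 genes tested and p-values adjusted over all of them by the Benjamini-Hochberg method. In aortic bulk RNA, fewer cells of a type and less RNA per cell cannot be told apart.

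Hmgcs1 (gene ID 208715, chr13:119690351-119708260 on GRCm38.p6) was read at 51.0, 131, 61.8 and 64.4 CPM in DKO 1 to DKO 4, against 88.2, 111 and 62.1 CPM in ApoE 1 to ApoE 3. DKO 2 was the highest library and ApoE 2 the next, DKO 1 was the lowest, and the groups overlapped. The means were 77.0 ± 36.4 CPM in libraries labelled DKO (SD, n = 4) and 87.0 ± 24.3 CPM in those labelled ApoE-/- (SD, n = 3), a log2 fold change of -0.18 with a standard error of 0.35 and an adjusted p of 0.823 (edgeR).

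Idi1 (gene ID 319554, chr13:8885606-8892396 on GRCm38.p6) was the lowest of the 7 genes in CPM, at 3.64, 7.45, 4.26 and 2.86 CPM in DKO 1 to DKO 4, against 3.77, 6.85 and 2.18 CPM in ApoE 1 to ApoE 3. Again DKO 2 came first and ApoE 2 second, while ApoE 3 was lowest, and the groups overlapped. Its log2 fold change of 0.09 (SE 0.47, adjusted p = 0.932 by edgeR) was the one positive value among the 7 genes. These levels rest on 40 to 159 counts per library, and Idi1 has a near relative, Idi2, on the same chromosome, so its counts are uncertain where reads match both.

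Sqle (gene ID 20775, chr15:59315092-59331193 on GRCm38.p6), whose product makes the first oxygenation step of sterol synthesis, was read at 11.4, 43.55, 15.2 and 16.5 CPM in DKO 1 to DKO 4, against 26.0, 33.1 and 11.7 CPM in ApoE 1 to ApoE 3. DKO 2 was 3.03 times the mean of the other libraries labelled DKO, and ApoE 2 was 1.76 times the mean of the others labelled ApoE-/-. The highest library was 3.82 times the lowest, the widest span of the 7 genes, and the groups overlapped. By edgeR the log2 fold change of Sqle came to -0.13, with SE 0.53 and adjusted p = 0.919.

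Lss (gene ID 16987, chr10:76531565-76557139 on GRCm38.p6) followed another pattern, at 13.4, 22.1, 14.3 and 15.4 CPM in DKO 1 to DKO 4, against 19.4, 20.5 and 21.0 CPM in ApoE 1 to ApoE 3. DKO 1, DKO 3 and DKO 4 were below every library labelled ApoE-/-, and DKO 2 was above them all, so the groups overlapped through that library alone. By edgeR the log2 fold change of Lss came to -0.31, with SE 0.18 and adjusted p = 0.371, and to -0.45 without DKO 2 and ApoE 2, again with no call.

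Cyp51 (gene ID 13121, chr5:4080674-4104697 on GRCm38.p6) was read at 20.1, 37.4, 20.3 and 20.9 CPM in DKO 1 to DKO 4, against 23.4, 33.8 and 17.5 CPM in ApoE 1 to ApoE 3. DKO 1, DKO 3 and DKO 4 lay close together, DKO 2 and ApoE 2 were well above all the others, and the groups overlapped. By edgeR the log2 fold change of Cyp51 came to -0.012, with SE 0.30 and adjusted p = 0.984, and its sign differed between scalings, at 0.012 with RLE size factors.

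Srebf2 (gene ID 20788, chr15:82147269-82205379 on GRCm38.p6), the regulator, was read at 61.3, 108, 75.4 and 85.1 CPM in DKO 1 to DKO 4, against 82.5, 97.3 and 70.0 CPM in ApoE 1 to ApoE 3. DKO 2 and ApoE 2 were again first and second, DKO 1 was lowest, and the groups overlapped. The means were 82.4 ± 19.6 CPM in libraries labelled DKO (SD, n = 4) and 83.3 ± 13.6 CPM in those labelled ApoE-/- (SD, n = 3), a log2 fold change of -0.015 (SE 0.20, edgeR adjusted p = 0.974) that was 0.010 with RLE size factors. Mir33, a microRNA gene that acts on cholesterol export, lies within Srebf2 on the same strand and was not measured separately here.

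Insig1 (gene ID 231070, chr5:28071412-28078662 on GRCm38.p6) retains SREBP2 in the endoplasmic reticulum and is itself a target of it. It was highest in neither DKO 2 nor ApoE 2 within their groups. It was read at 56.3, 55.3, 38.2 and 35.7 CPM in DKO 1 to DKO 4, against 83.0, 43.4 and 55.5 CPM in ApoE 1 to ApoE 3. ApoE 1 was highest, DKO 4 was lowest, and the groups overlapped. DKO 2 lay just below DKO 1, the highest of its group, while ApoE 2 was the lowest of its group. By edgeR the log2 fold change of Insig1 came to -0.39, with SE 0.26 and adjusted p = 0.434, and to -0.63 without DKO 2 and ApoE 2, with no call. Without ApoE 1, its highest library, it came to -0.09.

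**Figure D2:**
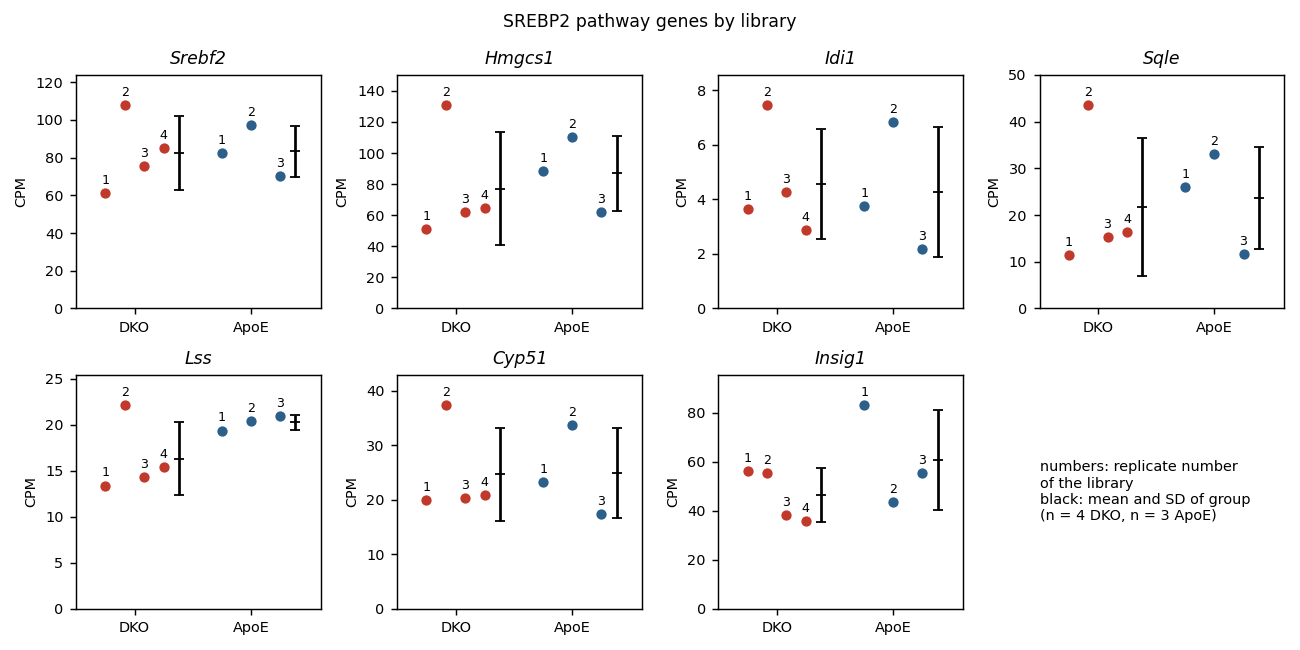
CPM of each of the 7 genes in each library, libraries labelled DKO left (red) and ApoE right (blue), each point marked with its replicate number, and the group mean with SD in black (n = 4 and n = 3). Points marked 2 are at the top of both groups for 5 of the genes, and the groups overlap in every panel.

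None of the 7 genes was called by edgeR at an adjusted p under 0.05, beside 0.0274% of all genes tested. At an unadjusted p under 0.05 the count was also 0 of 7, beside 19.8% of all genes, and DESeq2 and limma voom with quality weights each called 0 of 7, beside 7.82% and 16.2% of all genes. The groups were free of overlap for 0 of 7 genes, beside 16.3% of all genes (9.24% lower and 7.08% higher). The fold changes were negative for 6 of 7, with a median log2 value of -0.13, beside -0.021 over all genes, 52.6% of which were negative. That median rests on single libraries: with 1 library left out it ran from -0.46, without DKO 2, to 0.11, without ApoE 2, and it was also positive without DKO 1 or DKO 3. With RLE size factors 4 of 7 fold changes were negative.

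A p that misses the threshold does not show that the groups were alike, and the 95% intervals give the sizes these libraries leave possible. For Srebf2 the level in libraries labelled DKO lay between 0.715 and 1.37 times that in libraries labelled ApoE-/-. The interval ran from 0.6 to 1.08 times for Lss and from 0.503 to 1.16 times for Insig1. It was widest for Sqle, from 0.39 to 2.16 times, and for Idi1, from 0.5 to 2.27 times. On the log2(FPKM + 1) scale, limma gave differences of -0.27 for Insig1 to 0.12 for Idi1, with adjusted p from 0.537 to 0.970 and 0 of 7 called, beside 0.0416% of genes. The added 1 understates differences of low genes such as Idi1.

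The spread among libraries differed between the genes. The SD of log2 CPM over the 7 libraries was 0.75 for Sqle, 0.62 for Idi1 and 0.50 for Hmgcs1, higher than 89.9%, 85.1% and 78.2% of all genes tested. It was 0.41 for Cyp51 and for Insig1, 0.29 for Lss and 0.28 for Srebf2, beside a median gene of 0.26. Of the 7 genes, 5 were highest in DKO 2 among libraries labelled DKO and in ApoE 2 among those labelled ApoE-/- (71.4%), beside 14% of all genes. The exceptions were Lss and Insig1. Within a library, Insig1 stood at 1.64, 0.596, 0.890 and 0.775 times the Hmgcs1 FPKM in DKO 1 to DKO 4, against 1.31, 0.556 and 1.24 times in ApoE 1 to ApoE 3, so the balance of the feedback gene to the entry enzyme was lowest in ApoE 2 and DKO 2.

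Of 15 other sterol synthesis enzymes, 10 (66.7%) were also highest in DKO 2 and ApoE 2 within their groups. Fdps, which makes farnesyl diphosphate, was read at 15.4, 51.4, 20.4 and 24.1 CPM in DKO 1 to DKO 4, against 40.5, 41.6 and 26.2 CPM in ApoE 1 to ApoE 3. Fdps was chosen after its values were seen. DKO 2 was its highest library, ApoE 2 the next, and the groups overlapped.

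The genes whose profile over the 7 libraries was nearest to the mean profile of the 7 genes were Chn1, Adgrb2, Kif21a, Acot7, Dnm3, Akap12, Zwint and Cxxc4. Likeness was the root mean square difference of profiles scaled to SD 1, over 13019 genes, and it was 0.060 for Chn1 and 0.131 to 0.150 for the other 7. By the same measure, within a mean that includes them, Hmgcs1 lay at 0.114, Sqle at 0.196 and Insig1 at 1.10. Chn1, which encodes a Rac-regulating protein, was read at 8.86, 27.1, 10.3 and 9.66 CPM in DKO 1 to DKO 4, against 16.5, 20.9 and 10.5 CPM in ApoE 1 to ApoE 3. Kif21a, a kinesin of neurons, was read at 7.18, 62.5, 9.90 and 9.92 CPM in DKO 1 to DKO 4, against 22.8, 48.3 and 8.13 CPM in ApoE 1 to ApoE 3.

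Of 4 tested genes of sympathetic neurons and chromaffin cells, 3 were highest in DKO 2 and ApoE 2 within their groups (Th, Dbh and Chgb). Th, tyrosine hydroxylase, was read at 1.05, 222, 20.02 and 19.6 CPM in DKO 1 to DKO 4, against 74.0, 178 and 0.109 CPM in ApoE 1 to ApoE 3, the last from 2 counts. Dbh, dopamine beta-hydroxylase, was read at 2.20, 409, 40.5 and 44.6 CPM in DKO 1 to DKO 4, against 156, 362 and 0.327 CPM in ApoE 1 to ApoE 3. Chga, chromogranin A, was the exception, at 8.95, 32.1, 13.5 and 6.14 CPM in DKO 1 to DKO 4, against 31.3, 18.6 and 0.764 CPM in ApoE 1 to ApoE 3. Sums of marker lists, here and below, were scaled to library totals without TMM. Over the 5 genes of this list, of which 4 passed the filter, the sum was 13.5 to 759.6 CPM in libraries labelled DKO and 1.87 to 635 CPM in those labelled ApoE-/-. Pnmt, which defines adrenaline-making chromaffin cells, had 0 to 8 counts per library, so it was at or near 0. Of 6 adrenocortical genes, Star alone passed the filter, at 5.70, 2.77, 2.44 and 2.76 CPM in DKO 1 to DKO 4, against 3.92, 6.30 and 3.55 CPM in ApoE 1 to ApoE 3. Cyp11a1 had 5 to 15 counts per library, and Cyp11b2 was at 0 counts in 6 of 7 libraries. The 7 Schwann cell genes summed to 194 to 345 CPM in libraries labelled DKO and 253 to 446 CPM in those labelled ApoE-/-, with the highest value of each group in DKO 2 and ApoE 2. The part of these cells in the levels of the sterol genes was not tested.

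With the mean level of the sympathetic list as a covariate, a setting chosen after the data were seen, the standard error of the Sqle fold change was 0.24, against 0.53 without it, and the log2 fold change was -0.24. For Hmgcs1 the log2 fold change was -0.27 with a standard error of 0.20. The level of this list, like those of Sqle and Hmgcs1, was highest in DKO 2 and ApoE 2 within their groups. A smaller standard error follows from choosing such a covariate, and the part of these cells was not tested. None of the 7 genes was called in that fit by edgeR, with adjusted p from 0.337 to 0.908, beside 0.219% of all genes. Without DKO 2 and ApoE 2, the median log2 fold change of the 7 genes was -0.30 and 0 were called, beside 0.0137% of genes.

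**Figure D3:**
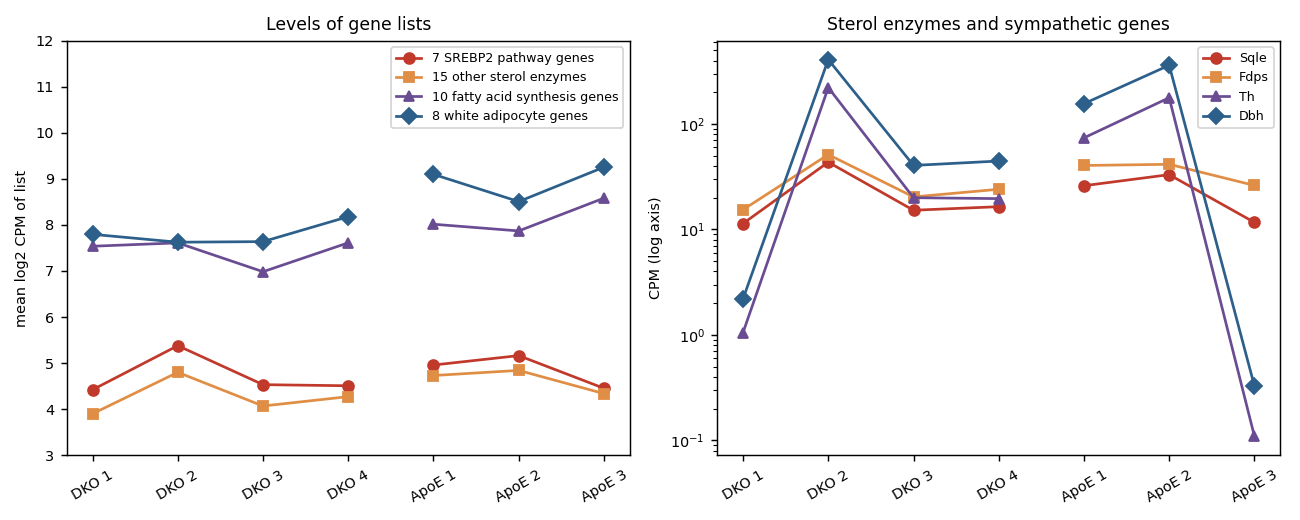
Left, mean log2 CPM of 4 gene lists in each library, libraries labelled DKO first; right, CPM on a log axis of Sqle, Fdps, Th and Dbh. The 7 genes stand at 5.38 in DKO 2 and 5.16 in ApoE 2, above the other libraries of each group, while the white adipocyte list is lower in libraries labelled DKO.

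Across the rest of the pathway, edgeR called none of the 15 other sterol enzymes, and 4 were lower and 0 higher at an unadjusted p under 0.05, beside 11.8% and 8% of all genes. The median log2 fold change was -0.34, with 12 negative and 3 positive. It was -0.17 without DKO 1, -0.22 without DKO 3 and -0.23 without ApoE 2. Acat2, which joins acetyl-CoA units before Hmgcs1 acts, averaged 33.7 ± 5.51 CPM in libraries labelled DKO (SD, n = 4) and 72.9 ± 19.6 CPM in those labelled ApoE-/- (SD, n = 3), a log2 fold change of -1.11 (SE 0.20, edgeR adjusted p = 0.120). Pmvk, phosphomevalonate kinase, averaged 22.1 ± 3.88 CPM in libraries labelled DKO and 39.2 ± 2.62 CPM in those labelled ApoE-/- (SD, n = 4 and n = 3), a log2 fold change of -0.83 (SE 0.15, edgeR adjusted p = 0.120). Fdft1, squalene synthase, averaged 40.7 ± 17.2 CPM in libraries labelled DKO and 74.7 ± 5.10 CPM in those labelled ApoE-/-, a log2 fold change of -0.88 (SE 0.28, edgeR adjusted p = 0.173). The groups did not overlap for Acat2, Pmvk, Fdft1 and Ebp, 4 of the 15, all lower in libraries labelled DKO, beside 9.24% of all genes. DESeq2 called Acat2, Pmvk and Fdft1 lower (adjusted p = 2.3e-04, 2.2e-04 and 0.0479), beside 4.66% of all genes, and voom called the same 3, beside 10% of all genes called lower by it and 6.17% called higher.

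**Figure D4:**
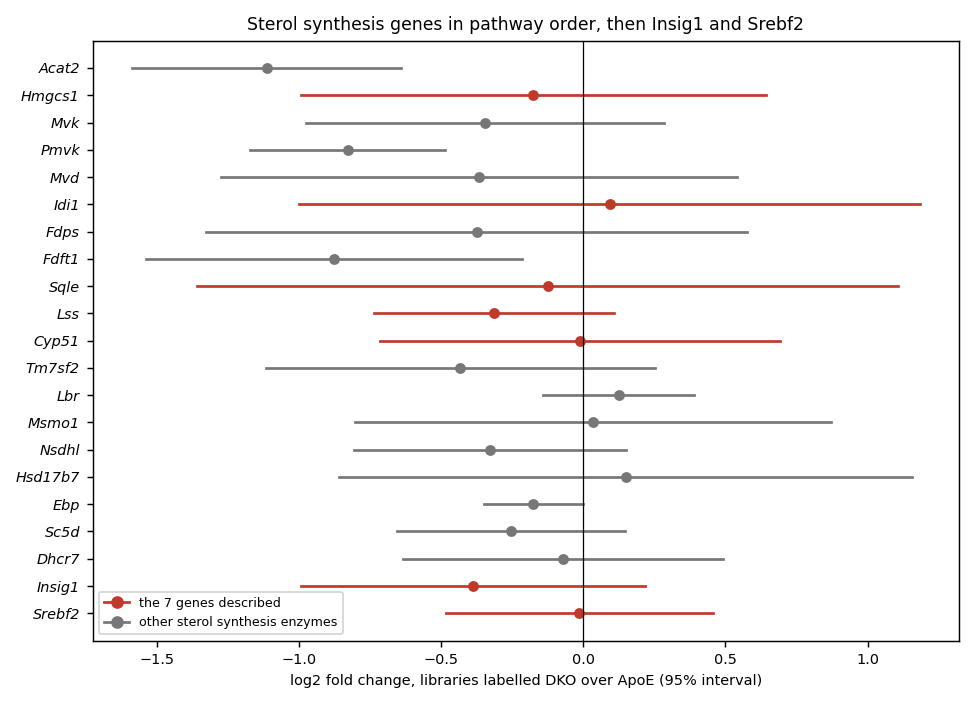
Log2 fold change of libraries labelled DKO over libraries labelled ApoE with 95% interval (edgeR) for sterol enzymes in pathway order, then Insig1 and Srebf2; the 7 genes are red and other enzymes of the pathway grey. All 7 red intervals include 0, and the lowest value shown is -1.11 for Acat2.

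The genes that carry and cleave SREBP proteins gave 0 calls of 8 by edgeR, with a median log2 fold change of -0.038. Srebf1, which encodes the related factor of fatty acid synthesis, was the one gene at an unadjusted p under 0.05, beside 11.8% of all genes lower and 8% higher. It averaged 319 ± 62.4 CPM in libraries labelled DKO and 529 ± 136 CPM in those labelled ApoE-/- (SD, n = 4 and n = 3), a log2 fold change of -0.73 (SE 0.21, edgeR adjusted p = 0.161). DESeq2 and voom called Srebf1 lower (adjusted p = 0.0240 and 0.0277), beside 4.66% and 10% of all genes. The 3 genes of smallest p were completed by the protease gene Mbtps2 at 0.31 and the ubiquitin ligase gene Rnf139 at -0.08 on the log2 scale, with edgeR adjusted p of 0.352 and 0.614.

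Of 10 genes of lipoprotein uptake and sterol trafficking, 0 were called by edgeR, and 1 was higher and 1 lower at an unadjusted p under 0.05, near the 8% and 11.8% of all genes. Lrp8, a receptor of the lipoprotein receptor family, averaged 16.3 ± 1.34 CPM in libraries labelled DKO and 11.0 ± 2.24 CPM in those labelled ApoE-/-, a log2 fold change of 0.57 (SE 0.16, edgeR adjusted p = 0.158). DESeq2 and voom called Lrp8 higher (adjusted p = 0.0279 and 0.0275), beside 3.16% and 6.17% of all genes. Vldlr, the receptor for very low density lipoprotein, averaged 56.4 ± 12.3 CPM in libraries labelled DKO and 81.1 ± 11.1 CPM in those labelled ApoE-/-, a log2 fold change of -0.52 (SE 0.18, edgeR adjusted p = 0.188), and was called lower by voom (adjusted p = 0.0271) and not by DESeq2 (adjusted p = 0.106).

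Branches that leave the pathway before sterols gave 0 calls of 7 by edgeR, with 2 higher and 1 lower at an unadjusted p under 0.05, beside 8% and 11.8% of all genes. Ggps1, which makes geranylgeranyl diphosphate, averaged 38.7 ± 2.68 CPM in libraries labelled DKO and 29.8 ± 1.62 CPM in those labelled ApoE-/-, and Pggt1b, a subunit of the enzyme that attaches it to proteins, averaged 53.1 ± 2.47 CPM in libraries labelled DKO and 41.8 ± 0.856 CPM in those labelled ApoE-/-. Their log2 fold changes were 0.38 and 0.35 (edgeR adjusted p = 0.148 and 0.133), and DESeq2 called both higher (adjusted p = 0.00563 and 0.00166), beside 3.16% of all genes. Pdss2, of ubiquinone synthesis, had a log2 fold change of -0.46 (edgeR adjusted p = 0.237).

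Of 10 fatty acid synthesis genes that SREBP1 controls, edgeR called 0, while 7 were lower and 0 higher at an unadjusted p under 0.05, beside 11.8% and 8% of all genes. Their median log2 fold change was -0.95, and -0.61 without ApoE 3, beside -0.13 for the 7 sterol genes, a difference that was not tested. Scd1, the desaturase, averaged 4417 ± 792 CPM in libraries labelled DKO and 9569 ± 2507 CPM in those labelled ApoE-/- (SD, n = 4 and n = 3), a log2 fold change of -1.12 (SE 0.23, edgeR adjusted p = 0.133). Acss2 and Acaca, which make acetyl-CoA and malonyl-CoA, had log2 fold changes of -1.35 and -1.15, both with an edgeR adjusted p of 0.162. DESeq2 called 6 of the 10 lower, beside 4.66% of all genes. The 8 white adipocyte genes were all negative in fold change and summed to 4125 to 6312 CPM in libraries labelled DKO and 8398 to 11166 CPM in those labelled ApoE-/-, and the brown adipocyte genes summed to 259 to 550.1 CPM in libraries labelled DKO and 668 to 1757 CPM in those labelled ApoE-/-. The part of fat tissue in these values, and in those of Acat2, Pmvk and Fdft1, was not tested.

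The list for the sterol-sensing receptor LXR held the receptor genes Nr1h3 and Nr1h2 as well as target genes. It gave 0 calls of 7 by edgeR, with a median log2 fold change of 0.08 over receptors and targets together. At an unadjusted p under 0.05, 0 were higher and 1, Nr1h3, was lower, beside 8% and 11.8% of all genes. The target genes Abcg1, Soat1, Mylip and Lpcat3 had log2 fold changes of 0.39, 0.71, 0.08 and -0.17, with edgeR adjusted p from 0.310 to 0.831. Abca1, the cholesterol exporter, averaged 619.7 ± 191 CPM in libraries labelled DKO and 400.7 ± 88.8 CPM in those labelled ApoE-/- (SD, n = 4 and n = 3), a log2 fold change of 0.63 (SE 0.28, edgeR adjusted p = 0.266). Voom called it higher (adjusted p = 0.0340), beside 6.17% of all genes, and DESeq2 did not (adjusted p = 0.128). Nr1h3, which encodes LXR alpha, averaged 38.1 ± 7.69 CPM in libraries labelled DKO and 58.2 ± 14.3 CPM in those labelled ApoE-/-, a log2 fold change of -0.61 (SE 0.21, edgeR adjusted p = 0.190), and Nr1h2, which encodes LXR beta, had -0.36 (edgeR adjusted p = 0.279).

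Other cell type lists were set beside these values. All 8 white and all 6 brown adipocyte genes had negative fold changes. The adventitial fibroblast list was split, with 4 negative and 3 positive (Pdgfra, Lum and Col1a1), and its sum was 9379 to 19284 CPM in libraries labelled DKO and 12591 to 13198 CPM in those labelled ApoE-/-. Of 13 circadian clock genes, 10 were negative and 3 positive. The clock activators Arntl, Npas2 and Clock were higher in every library labelled DKO than in any labelled ApoE-/-, beside 7.08% of all genes. Lower without overlap were 6 other clock genes, among them Per1 and Per2, beside 9.24% of all genes. Macrophage genes summed to 686 to 1141 CPM in libraries labelled DKO and 642 to 997 CPM in those labelled ApoE-/-. Of these 7 genes, 6 were positive in fold change and 1, Cd163, was negative. At an unadjusted p under 0.05 by edgeR, Cx3cr1 was higher (log2 fold change 1.08) and Cd163 lower (-1.48), beside 8% and 11.8% of all genes, and none was called. Smooth muscle genes summed to 8933 to 29678 CPM in libraries labelled DKO and 16418 to 23427 CPM in those labelled ApoE-/-. Atrial cardiomyocyte genes summed to 19.7 to 43.5 CPM in libraries labelled DKO and 40.0 to 1227 CPM in those labelled ApoE-/-. Of 5 hepatocyte genes, Cyp2e1 alone passed the filter, at 447 to 578 CPM in libraries labelled DKO and 919 to 1128 CPM in those labelled ApoE-/-. Alb, which defines hepatocytes, had 3 to 118 counts in libraries labelled DKO, highest in DKO 3, and 5 to 21 in those labelled ApoE-/-. The part of these genes in the levels of the sterol genes was not tested.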

How the data were processed

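RNA sequencing of abdominal aorta was used from 7 libraries, 4 labelled DKO and 3 labelled ApoE-/-. The authors deposited raw read counts per gene and FPKM values for 21878 genes. Trimmomatic, HISAT2, HTSeq, Cufflinks, DESeq and the GRCm38.p6 build are named per the submitters' processing notes, without versions or roles. Libraries were made with a stranded kit, per the labels' protocols, and whether strand was used in counting is not given in the sources used here. Hmgcs1, Idi1, Lss and Cyp51 overlap genes of the opposite strand, and Srebf2 holds Mir33, so their counts are uncertain to that extent. In the tables, 27 symbols that had been turned into dates were restored through gene IDs.

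Groups followed the labels, and no pair of libraries agreed within sampling noise (lowest chi-square per gene 35.2). Genes were kept by edgeR's filterByExpr with a minimum count of 10, which left 14609 genes, and 4054 genes had no count. TMM scaling and edgeR 4.0.16's quasi-likelihood test (R 4.3.3) compared DKO with ApoE-/-, with an adjusted p threshold of 0.05 over all genes. FPKM values were tested with limma 3.58.1 on log2(FPKM + 1), for genes of mean FPKM of at least 1. Alternatives were RLE size factors, DESeq2 1.42.0, voom with quality weights, other filters and pseudocounts, a replicate block and leaving out each library. The fits were also run on simulated data with planted changes, and the share of these recovered is not reported here. Library totals were 19295287 to 21727192 counts, and the floor of 3 counts covers counting error only. Deviations of same-numbered libraries did not correlate throughout, so the numbers were not taken to pair them.

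The members and lists were chosen with earlier results of these data known. Genes named were the 7 members, the 3 of smallest p in each other pathway list (some genes that the rule named are not reported here), and the 8 nearest in profile among genes with a mean log2 CPM of at least 1. Fdps, Ebp, Abcg1, Soat1, Mylip, Lpcat3 and the cell type and clock genes named were chosen after their values were seen.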

Additional observations from a re-analysis of the deposited data

Results flagged for a closer look

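In the 4 libraries labelled DKO, DKO 2 stood apart from the others by Dixon's ratio of the gap to the range, past the 95% critical value for a group of 4. The ratio was 0.832 for Hmgcs1, 0.842 for Sqle and 0.951 for Cyp51 in CPM, and 0.871, 0.86 and 0.979 for the same genes in FPKM. It was 0.885 for the mean level of the 7 genes, also with DKO 2 high. For the mean level of the 10 fatty acid synthesis genes it was 0.881, with DKO 3 low. Of 31 values tested, 8 passed, where chance gives about 1 in 20. CPM and FPKM of a gene come from the same reads, so these 8 are not independent.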

How the results depend on the processing

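No call was made for any of the 7 genes under 18 alternatives to the edgeR fit, with a lowest adjusted p of 0.091 for Insig1, or under 11 alternatives on FPKM. Lss and Insig1 kept a negative log2 fold change in all of these, at -0.48 to -0.21 for Lss and -0.58 to -0.09 for Insig1 with 1 library left out. Insig1 was nearest to 0 without ApoE 1, also on FPKM, at -0.075. The median of the 7 genes ran from -0.46 to 0.11 with 1 library left out, and on FPKM from -0.29 to 0.19. Over all genes, edgeR called 0 higher and 4 lower. DESeq2 called 461 higher and 681 lower, voom 902 and 1467, log2(FPKM + 1) and log2(FPKM + 0.1) each 1 higher, FPKM without a filter 0 lower, the fit without DKO 2 and ApoE 2 together 2 lower, and the sympathetic covariate 2 higher and 30 lower. The last 2 settings were chosen after seeing the data. Leaving out 1 library gave 0 to 4 higher and 0 to 2 lower. The pathway lists had 0 calls by edgeR, 3 higher and 10 lower by DESeq2, and 4 higher and 11 lower by voom. The isoprenoid list's median log2 value of -0.07 was 0.21 by voom and -0.15 to 0.14 with 1 library left out. Srebf2 was 0.010 with RLE size factors and by DESeq2, 0.052 on log2(FPKM + 1) with or without a filter and 0.056 on log2(FPKM + 0.1). Cyp51 was 0.012 with RLE size factors and by DESeq2, 0.024 on log2(FPKM + 1) with or without a filter, 0.029 on log2(FPKM + 0.1) and 0.047 without DKO 2 and ApoE 2 together. With 1 library left out, log2 fold changes ran from -0.16 to 0.12 for Srebf2, -0.54 to 0.035 for Hmgcs1, -0.23 to 0.61 for Idi1, -0.70 to 0.20 for Sqle and -0.27 to 0.27 for Cyp51. On FPKM they ran from -0.098 to 0.19, -0.48 to 0.055, -0.10 to 0.44, -0.54 to 0.20 and -0.19 to 0.27 for the same genes. The causes were not tested.

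With the replicate number as a block, 0 genes were called lower and Cyp51 was 0.049, with no member called. DKO 4 has no partner and adds nothing to that fit. Same-numbered libraries had correlations of deviations of -0.39, 0.70 and 0.0036 over 14609 genes, and ApoE 3 and ApoE 1 correlated best with another number. The labels do not say that the numbers pair the libraries. Deviations within a group sum to 0, so these correlations depend on one another and cannot show whether same-numbered libraries share a batch. A call lost under the block is not read here as a weaker effect, and its cause was not tested. At these depths Idi1, with 40 to 159 counts, is the least precisely counted of the 7 genes.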
